A study of Rattus norvegicus with 3 samples.

Results

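The genes described here bind, store, import or burn fatty acids, or belong to the family of peroxisome proliferator-activated receptors (PPARs) and their targets. They were chosen by name, as Fabp4, Fabp5, Angptl4, Pdk4, Cpt1a, Plin2, Lpl, Ppard and Ppara, from the platform annotation with older aliases accepted. Of the 9 genes 8 were measured, by 11 of the 20932 probes that carried a gene symbol, out of 15925 named genes in all. Plin2, which coats lipid droplets, was matched by no named probe and was not analysed here.

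PPARs are nuclear receptors that bind fatty acids and their derivatives and, paired with a retinoid X receptor, switch on genes for fatty acid transport, storage and oxidation. Alveolar macrophages clear surfactant lipid from the lung surface and depend on one member of the family, PPAR gamma, for their identity. Fabp4 and Fabp5 carry fatty acids inside the cell, Lpl releases them from lipoproteins outside it, and Angptl4 inhibits Lpl. Pdk4 shuts off the pyruvate dehydrogenase complex when fatty acids are burned, and Cpt1a brings fatty acids into mitochondria.

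The cells were NR8383, an established line of rat alveolar macrophages, so that every group rests on 1 line in culture. They were grown in medium with 15% heat-inactivated fetal bovine serum and then exposed for 24 h. The groups were CNT-1 and CNT-2, each 0.1 mg/mL of a kind of impurity-free single-wall carbon nanotube dissolved in 1 mg/mL bovine serum albumin, and a control. The labels name the control both as untreated and as a solvent control with albumin, and the sources used here do not tell CNT-1 and CNT-2 apart. RNA was hybridised to 1-colour Agilent arrays, and each group has 1 column of values. There was therefore no replicate check and no test between groups, and "higher" and "lower" describe these columns only.

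All values are on the deposited scale, read as log2, on which each probe is centred on an unnamed baseline. A difference of 1 unit is then 2-fold, and the level of one gene cannot be set against that of another. The 11 member probes lay between -0.05 and 0.05 in the control column, and none lay within 0.02 of the negative-control probe, which was at 0.16. On values centred per probe this does not show how far a signal stood above background. Over all 15925 genes the CNT-1 column lay at a median of -0.04 from control and the CNT-2 column at 0.04, and CNT-2 lay 0.15 above CNT-1. The CNT-2 median against control became -0.28 when columns were centred on their 75th percentile and -0.18 when they were centred on spike-in probes. The CNT-1 median became 0.08 after quantile normalization. Of all genes at least 1 unit from control, 35.0% were higher in CNT-1, or 49.7% after quantile normalization, and 60.7% in CNT-2, or 34.9% after 75th percentile centring. In CNT-2 the 10 probes for spiked RNA lay 0.23 ± 0.10 above control (SD over these probes). A set of control probes called DCP, of unstated purpose, was grouped here by the number in the probe name. In CNT-2 the 11 with numbers 0 to 5 lay at 0.22 ± 0.08 and the 7 with numbers 6 and above at -0.18 ± 0.26 (SD over probes). The cut was chosen here, and the ranges overlapped, at 0.09 to 0.33 and -0.54 to 0.20. The part of the DCP probes in the CNT-2 results was not tested.

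The 8 genes lay on both sides of control with each nanotube. In CNT-1, 1 of them was at least 1 unit above control and 2 were at least 1 unit below, and the other 5 lay within 0.29 of it. Over all genes 1.16% were that far above and 2.15% that far below. In CNT-2, 2 were above and 2 below, against 10.1% and 6.56% of all genes. The median of the 8 genes was -0.15 in CNT-1 and -0.10 in CNT-2. The 2 comparisons share the control column, and the genes were listed with earlier results of these data known, so their counts are a description.

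**Figure D1:**
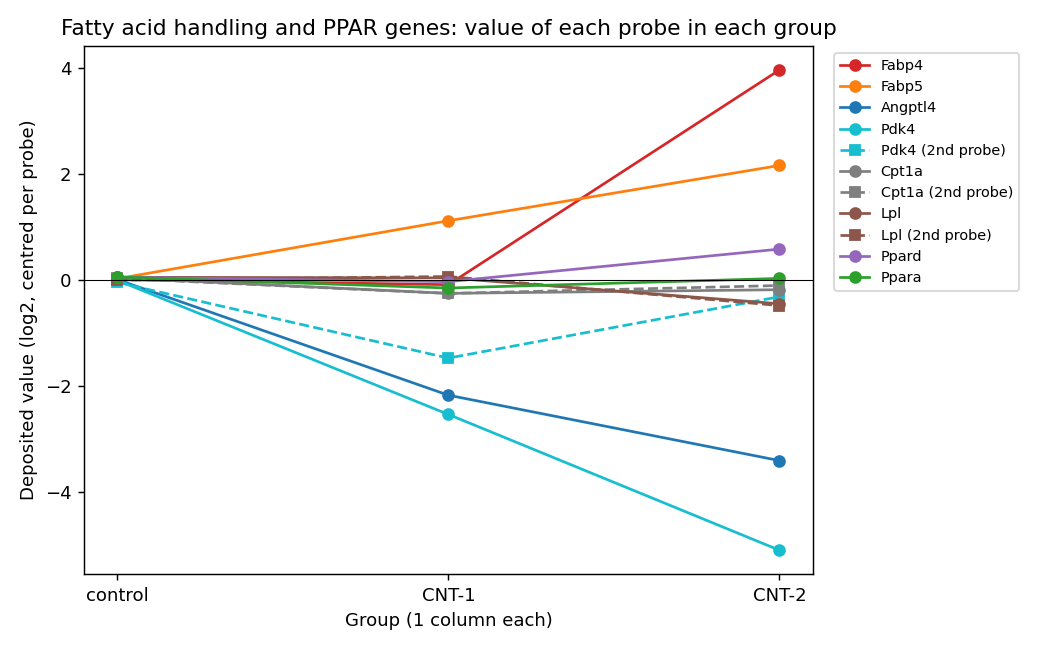
Deposited value (log2, centred per probe) of each of the 11 member probes in the control, CNT-1 and CNT-2 columns, with 1 line per probe and a dashed line for the second probe of a gene. Fabp4 leaves 0 in CNT-2 alone and reaches 3.96, Angptl4 goes to -2.18 and -3.42, and the Pdk4 probes part in CNT-2, at -5.11 and -0.32.

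Both fatty acid binding proteins were higher in CNT-2, and they parted in CNT-1. Fabp4, the binding protein of fat cells and macrophages, had 1 probe, with values of -0.001 in control, -0.10 in CNT-1 and 3.96 in CNT-2. The CNT-2 value alone stood away from 0. The difference from control was 3.96 in CNT-2, or 15.5-fold on the log2 reading, which placed Fabp4 at rank 86 from the top among all genes. In CNT-1 it was -0.10, or 0.04 after quantile normalization, close to the median of all genes. The difference between the exposures was 4.05, at rank 62 from the top, and 2.22 after quantile normalization.

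Fabp5, the epidermal relative of Fabp4 that macrophages also express, was higher with both nanotubes. Its 1 probe read 0.02 in control, 1.11 in CNT-1 and 2.15 in CNT-2. The differences from control were 1.09, or 2.13-fold, and 2.14, or 4.40-fold, at ranks 146 and 374 from the top. CNT-2 lay 1.04 above CNT-1. It stayed above by 0.92 with median centring, 0.72 with 75th percentile centring and 0.77 with spike-in centring. Quantile normalization, which gives all columns the same spread, turned the difference to -0.24. The order of the exposures for Fabp5 thus held when columns were shifted and not when their spreads were made equal.

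The position of these genes in the genome was not used to choose them. Fabp4 and Fabp5 are neighbours on rat chromosome 2 in the RefSeq annotation of assembly GRCr8, with Fabp12 just before Fabp4 and with Fabp9 and Pmp2 between them. These genes were added for their place after the lists were made, some with their values known. Fabp9, the binding protein of testis, read -0.05 in control, 1.50 in CNT-1 and 3.78 in CNT-2. Its differences from control were 1.55 and 3.83, so that in CNT-2 it lay near Fabp4 and in CNT-1 above Fabp5. After quantile normalization these differences were 2.51 and 2.53. The difference of Fabp9 between the exposures then fell from 2.28 to 0.015. Pmp2, the binding protein of myelin, was at -0.24 and 0.05, with a background-like control value. Fabp12 was at -0.41 in CNT-1, or 0.02 after quantile normalization, and at 0.76 in CNT-2. Outside the cluster the measured neighbours on the Fabp12 side were Impa1, at 0.30 in CNT-2, Slc10a5, at -0.41, Zfand1, at -0.06, Chmp4c, at -0.14, and Snx16, at 0.80. On the Fabp5 side Pag1 was at -0.17 and Zbtb10 at 1.61. Of the 5 family members in the cluster, 3 were thus at least 1 unit above control in CNT-2 and 2, Fabp9 and Fabp5, in CNT-1, where all genes gave 10.1% and 1.16%. Fabp4 and Fabp5 had been listed with their values known. The genes of this family resemble one another in sequence, and hybridisation of one transcript to the probe of another was not tested.

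Angptl4, the secreted inhibitor of lipoprotein lipase and a common readout of PPAR activity, had the lowest gene value of the 8 with both nanotubes, although 1 probe of Pdk4 lay lower still. Its 1 probe read 0 in control, -2.18 in CNT-1 and -3.42 in CNT-2. The differences were -2.18, or 4.53-fold lower, and -3.42, or 10.7-fold lower, at ranks 18 and 16 from the bottom of 15925 genes. In the values as deposited, 17 genes were lower in CNT-1 and 15 in CNT-2, and 0 genes were lower in both. CNT-2 lay below CNT-1 by a difference of -1.23, which shrank to -0.11 after quantile normalization.

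Pdk4, the kinase that inactivates pyruvate dehydrogenase, was also lower with both nanotubes, but its 2 probes disagreed. The probe annotated to an Ensembl transcript read -0.01 in control, -2.54 in CNT-1 and -5.11 in CNT-2. The probe annotated to the RefSeq transcript read -0.05, -1.48 and -0.32. Both probes were thus below control in both columns, the first furthest in CNT-2 and the second furthest in CNT-1. The mean difference was -1.98 ± 0.78 (SD over 2 probes) in CNT-1 and -2.68 ± 3.41 in CNT-2. The probe SD in CNT-2 exceeded that of 99.9% of all genes with 2 or more probes, and in CNT-1 it exceeded 96.4% of them. Between the exposures the probes had opposite signs, -2.56 and 1.16, so no order of CNT-1 and CNT-2 can be given for Pdk4. With the second probe alone, Pdk4 would not be 1 unit below control in CNT-2. In the gene mean, 4 genes were lower than Pdk4 in both CNT-1 and CNT-2.

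Angptl4 and Pdk4 are the members whose gene value was at least 1 unit lower with both nanotubes, and their promoters are shown for that reason. The 250 bases before the start site, from RefSeq on assembly GRCr8, were printed for each on the strand of the gene, at chr7:15258682-15258931 (minus strand) for Angptl4 and at chr4:34568330-34568579 (minus strand) for Pdk4. Capitals mark the letters TATAAA together with their overlapping match on the other strand.
Angptl4: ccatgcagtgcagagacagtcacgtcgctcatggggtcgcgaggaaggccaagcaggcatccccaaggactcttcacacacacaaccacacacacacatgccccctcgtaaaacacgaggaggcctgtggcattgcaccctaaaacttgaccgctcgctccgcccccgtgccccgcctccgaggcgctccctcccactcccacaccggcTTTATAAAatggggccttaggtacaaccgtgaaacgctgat
Pdk4: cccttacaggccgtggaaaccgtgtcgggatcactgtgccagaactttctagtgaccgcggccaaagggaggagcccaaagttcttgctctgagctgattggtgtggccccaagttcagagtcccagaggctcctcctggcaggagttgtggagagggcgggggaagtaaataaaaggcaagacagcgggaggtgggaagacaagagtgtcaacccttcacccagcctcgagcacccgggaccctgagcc
The PPAR response element is a direct repeat of AGGTCA with 1 free base between its 2 copies. It was searched on both strands in the 300 bases of the table around each start site, as that repeat, as a looser repeat of AGGNCA, which includes every match of the first, and as a single AGGTCA. None of the 4 members with a promoter in the table, Angptl4, Pdk4, Cpt1a and Ppara, held a match to any of these. Over all 27457 promoters the shares with a match were 0.0583%, 0.412% and 15.7%. TATAAA was found in Angptl4 alone of the 4, starting 39 bases before the start site on the strand of the gene, and in 14.3% of all promoters on either strand. The GC content of the printed bases was 60.0% in Angptl4 and 59.2% in Pdk4, against a median of 52.0% over all promoters. The window covers only the bases next to the start site, and the search says nothing of elements elsewhere in the genes.

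**Figure D2:**
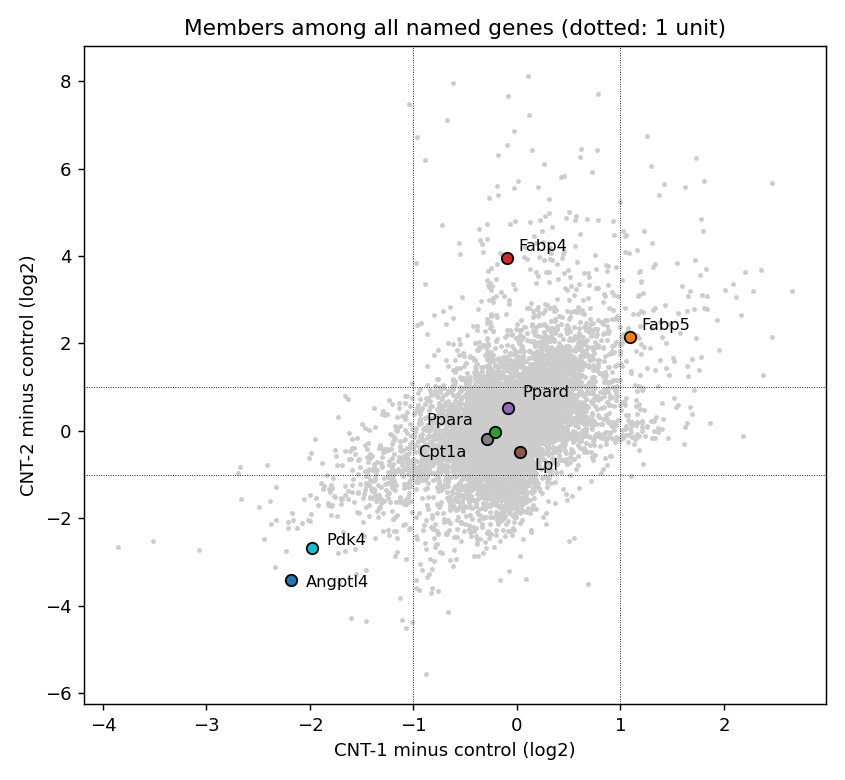
Difference from control (log2) in CNT-1 on the horizontal and in CNT-2 on the vertical axis, with 1 grey point for each of 15925 genes, the 8 members in colour and dotted lines at 1 unit. Angptl4 and Pdk4 lie at the lower left edge, Fabp5 at the upper right, and Fabp4 at 3.96 on the vertical axis with a CNT-1 difference of -0.10.

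The receptors and the enzymes that handle fatty acids directly differed less from control. Ppard, the PPAR found in most tissues, had values of 0.05 in control, -0.04 in CNT-1 and 0.58 in CNT-2. Its differences were -0.08 and 0.53, and the second lay between 0.19 and 0.44 under the other scalings. Ppara, the receptor of liver and other tissues that burn fat, read 0.05, -0.16 and 0.02, with differences of -0.21 and -0.03. The second lay between -0.34 and -0.12 under the other scalings. Neither receptor came within 0.4 of the 1-unit threshold in either exposure.

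Lpl and Cpt1a each had 2 probes that stayed close to each other. For Lpl the probes read 0.04 and -0.01 in control, 0.03 and 0.06 in CNT-1 and -0.46 and -0.49 in CNT-2. The difference from control was 0.03 ± 0.06 (SD over 2 probes) in CNT-1 and -0.49 ± 0.01 in CNT-2. Both Lpl probes were thus lower in CNT-2 alone, to between -0.81 and -0.24 under the other scalings. For Cpt1a the probes read 0.03 and 0.02 in control, -0.26 and -0.26 in CNT-1 and -0.19 and -0.11 in CNT-2. The difference was -0.29 ± 0.01 in CNT-1 and -0.18 ± 0.06 in CNT-2, the latter between -0.50 and -0.16 under the other scalings. The order of CNT-1 and CNT-2 changed with the scaling for Cpt1a, from 0.11 as deposited to -0.22 with 75th percentile centring, and likewise for Ppara, from 0.18 to -0.14.

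Of the 8 genes, CNT-2 was at least 1 unit above CNT-1 for 2, Fabp4 and Fabp5, and at least 1 unit below for 1, Angptl4, against 9.32% and 4.65% of all genes. Each of the 4 other scalings left only Fabp4 above. Quantile normalization, which gives all columns the same spread, also reduced the differences of CNT-2 from control, to 2.26 for Fabp4, 1.21 for Fabp5, -1.96 for Angptl4 and -1.39 for Pdk4. All 4 stayed past 1 unit.

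**Figure D3:**
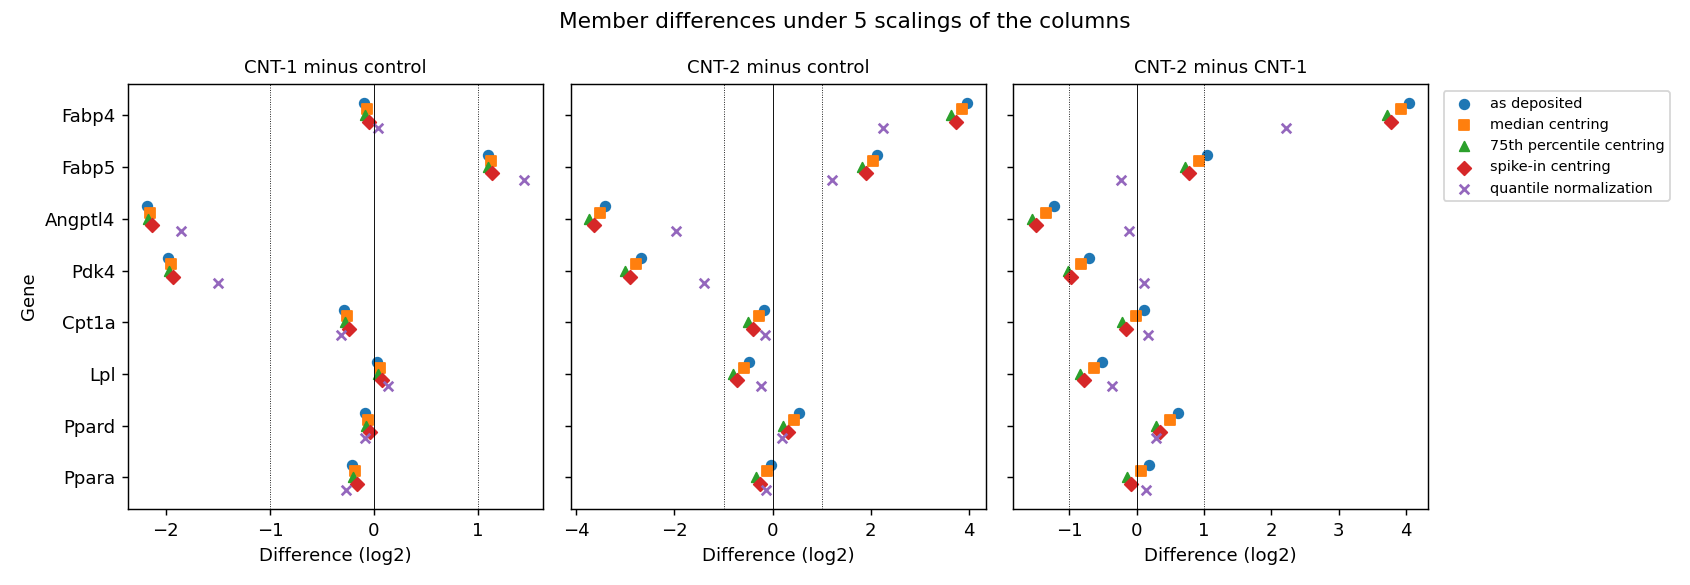
Difference (log2) of each of the 8 members in the 3 comparisons, with 1 symbol for the values as deposited and for each of 4 other scalings of the columns, and dotted lines at 1 unit. Fabp4, Fabp5, Angptl4 and Pdk4 keep their side of control in CNT-2 under all 5, and between the exposures Fabp5 crosses 0 after quantile normalization, at -0.24.

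The genes nearest to Fabp4 and Angptl4, measured as the Euclidean distance over the 2 differences from control, give the surroundings of their patterns. Nearest to Fabp4 were Tmod1, at a distance of 0.13, Dsc3, at 0.16, and Slc9c2, at 0.18. Nearest to Angptl4 were Diras2, at 0.34, Slc36a2, at 0.46, and Fut7, at 0.64. Likeness over 2 values of 3 columns is a weak measure, and the control values of Dsc3, -0.37, and Diras2, -0.26, lay off 0. That of Slc9c2, 0.15, was background-like.

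Other genes of fatty acid metabolism, in 7 lists with 130 measured genes, were set beside the members. In CNT-1, 3 of the 130 were at least 1 unit above control and 0 below, against 1.16% and 2.15% of all genes, with the lowest being Slc27a1 at -0.95. In CNT-2, 19 or 14.6% were above and 14 or 10.8% below, against 10.1% and 6.56% of all genes, and the median was 0.04, as it was for all genes. With 75th percentile centring 12 were above and 23 below in CNT-2, against 989 and 1844 of all 15925 genes. Quantile normalization gave 8 and 3 in CNT-2, against 863 and 545 of all genes. In CNT-1 it gave 8 and 2, against 586 and 593. Counts of the single lists under other scalings are to be read beside these all-gene counts. No test was possible with 1 column per group.

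Among receptor partners and coregulators of PPARs 0 of 14 genes were 1 unit above or below in either exposure as deposited. All genes gave 10.1% above and 6.56% below in CNT-2, and 1.16% and 2.15% in CNT-1. With 75th percentile centring 1, Pparg, was 1 unit below in CNT-2, at -1.06. The median in CNT-2 was -0.13, between -0.44 with that centring and 0.13 after quantile normalization. Pparg, the PPAR of fat cells and alveolar macrophages, was at 0.06 in CNT-1 and -0.74 in CNT-2, the lowest of this list in CNT-2. Fabp4, a classical target of this receptor, was above control in CNT-2. The activity of the receptor was not measured, and a link between these genes was not tested.

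Genes of fatty acid uptake, binding and activation had 3 of 20 at least 1 unit above control in CNT-2 and 2 below. All genes gave 10.1% and 6.56%. The list median was 0.03 (-0.28 after 75th percentile centring). After quantile normalization 1 of the list was above, Acsl4, and 0 below. Those above as deposited were acyl-CoA synthetases, which activate fatty acids, and a transporter. Acsl4 was at 1.65 ± 0.22 (SD over 2 probes), Acsl5 at 1.43 and Slc27a4 at 1.14 ± 0.13 (SD over 2 probes). Acsl3, at 0.98, and Acsl1, at 0.64 ± 0.23 (SD over 4 probes), stayed under 1 unit, and Acsl6 was at -0.10. The control value of Acsl6 was background-like. Those below were the transporters Slc27a1, at -1.17 ± 0.02 (SD over 2 probes), and Slc27a3, at -1.14. Cd36, the fatty acid receptor of macrophages, was at 0.07 in CNT-1 and -0.26 in CNT-2. Quantile normalization brought Slc27a4 to 0.64, Slc27a1 to -0.61 and Slc27a3 to -0.66. The 6 fatty acid binding proteins of this list lay between -0.27, Fabp6, and 0.76, Fabp12.

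Lipid droplet and triglyceride genes held differences past 1 unit in both directions in CNT-2. Of 20 genes 5 were above and 3 below, against 10.1% and 6.56% of all genes. The list median was 0.18 (-0.14 after 75th percentile centring). After quantile normalization 2 were above and 1 below, with Gpam at 0.95, Plin5 at -0.97 and Abhd5 at -0.61. The highest were Mgll, the monoglyceride lipase, at 1.93 ± 0.74 (SD over 2 probes), Gpam, which starts glycerolipid synthesis, at 1.60, and G0s2, an inhibitor of the triglyceride lipase Pnpla2, at 1.52 ± 0.04 (SD over 2 probes). The lowest were the droplet proteins Cidec, at -2.43, and Plin5, at -2.03, and the lipase activator Abhd5, at -1.60. In CNT-1 only G0s2 passed 1 unit, at 1.01 ± 0.09, joined by Mgll, at 1.35, after quantile normalization. Other perilipins were at 1.27 for Plin3 and -0.14 for Plin1 in CNT-2, and the control value of Plin1 was background-like.

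In a list of lipoprotein lipase regulators that also held the lipases Lipg, Lipc and Lipa, 3 of 12 genes were at least 1 unit above control in CNT-2. None was that far below. All genes gave 10.1% and 6.56%. The list median was 0.65, or 0.22 to 0.56 under the other scalings. Apoa5, an activator of the lipase, was at 3.61, the endothelial lipase Lipg at 1.40, and Gpihbp1, which anchors the lipase on capillaries, at 1.36. The control values of Lipg, 0.34, and Gpihbp1, 0.22, lay off 0, and after quantile normalization they were only 0.13 and 0.20 above control.

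Among genes of mitochondrial fatty acid oxidation those past 1 unit were all lower in CNT-2. Of 24 genes 9 lay above 0 and 15 below in CNT-2, where all genes gave 8524 and 7391. The list split became 2 and 22 with 75th percentile centring and 11 and 13 after quantile normalization. The list median in CNT-2 was -0.20, or -0.51 to -0.02 under the other scalings. With 75th percentile centring 7 were 1 unit below control, while the count over all 15925 genes rose from 1045 to 1844. As deposited 0 were 1 unit above and 4 were 1 unit below, against 10.1% and 6.56% of all genes. Those below were Hadh, a beta-oxidation dehydrogenase, at -1.39 ± 0.12 (SD over 2 probes), Cpt2, the partner of Cpt1a on the inner membrane, at -1.37, Acad10 at -1.23 and the very long chain dehydrogenase Acadvl at -1.04 ± 0.08 (SD over 2 probes). None of the 4 was 1 unit below after quantile normalization. In CNT-1 the median was -0.06, or 0.03 after quantile normalization, and 0 of 24 passed 1 unit.

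Peroxisomal genes and other PPAR targets had 4 of 27 at least 1 unit above and 4 below in CNT-2. All genes gave 10.1% and 6.56%. The list median was 0.001 (-0.32 after 75th percentile centring). The list counts became 3 and 9 with that centring, where all genes gave 989 and 1844. They were 4 and 8 with spike-in centring, where all genes gave 1139 and 1565. Quantile normalization gave 2 and 2 in the list, and left Gk at 0.90 and Ehhadh at -0.62. The highest were Tgm2, a transglutaminase of activated macrophages, at 4.57, Arg1, which splits arginine, at 4.19, and the glycerol kinase Gk at 1.33. The lowest were Abcd2, a peroxisomal importer of fatty acids, at -3.67, Scp2, a lipid carrier, at -2.28 ± 1.63 (SD over 2 probes), and Ehhadh, a peroxisomal oxidation enzyme, at -1.19. In CNT-1 Cyp4a3, a fatty acid hydroxylase with a background-like control value, was at 1.10, whereas it was at -1.02 in CNT-2. Tgm2 was at 1.03 in CNT-1.

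Of the kinases related to Pdk4, Pdk2 and Pdk3 lay below control in CNT-2 and Pdk1 above. Pdk1 was at 1.27, Pdk2 at -1.59 and Pdk3 at -0.51 ± 0.06 (SD over 2 probes), with the same signs under the other scalings. Of the 13 genes of this list 4 were at least 1 unit above control in CNT-2 and 1, Pdk2, below. All genes gave 10.1% and 6.56%. The list median was 0.34 (0.02 after 75th percentile centring). The list counts became 1 and 1 with that centring and 1 and 0 after quantile normalization, which left Pdk2 at -0.91. Pdhx, a structural subunit of the complex, was at 1.80 and Mpc1, a pyruvate importer of mitochondria, at 1.18. In CNT-1 none of the 13 passed 1 unit, or 2 after quantile normalization, Pdhx at 1.36 and Pdp2 at 1.18, and Pdk4 itself was at -1.98.

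**Figure D4:**
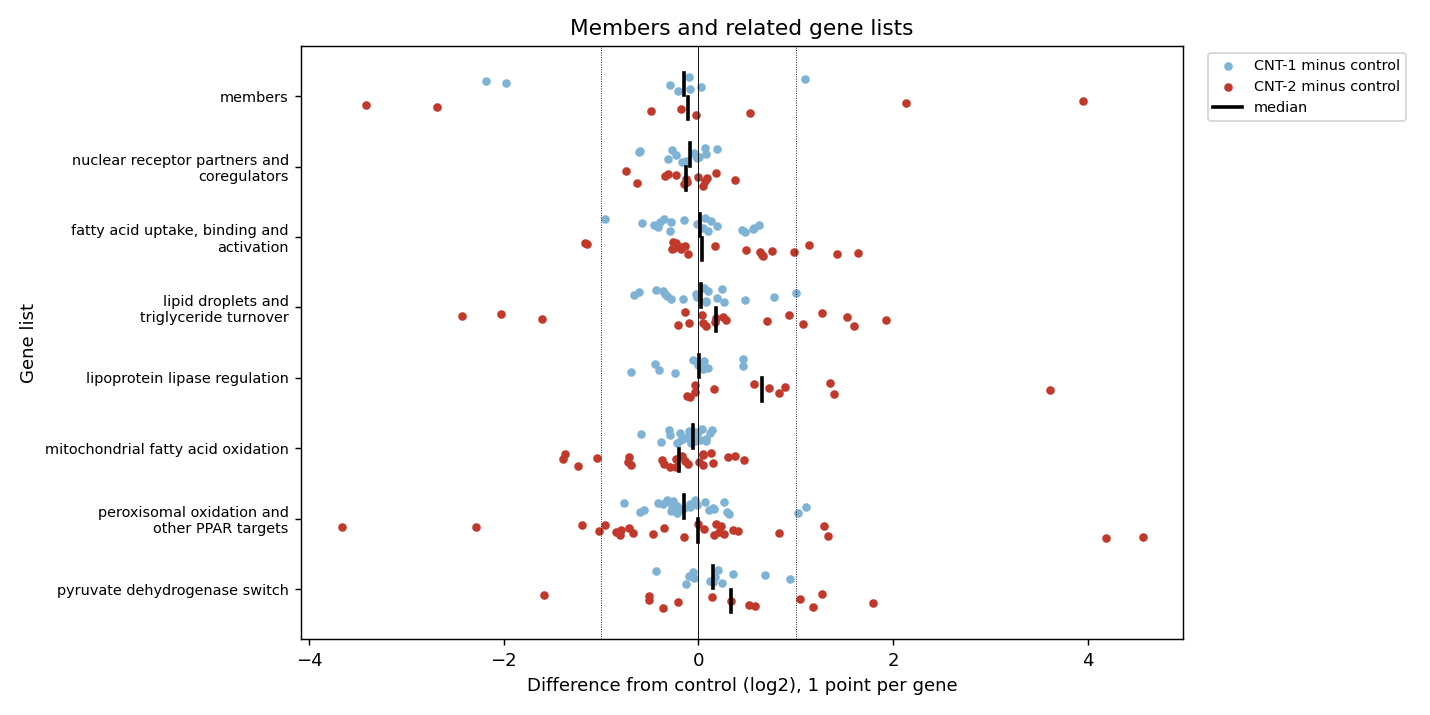
Difference from control (log2) of each member and of each gene in the 7 related lists, 1 point per gene, in blue for CNT-1 and red for CNT-2, with a black bar at the median and dotted lines at 1 unit. In CNT-2 the medians lie between -0.20 and 0.65 while single genes reach from -3.67 to 4.57.

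Fabp4, Lpl and several related genes are also markers of fat cells. Because the values are centred, they hold no levels from which a marker could be called absent. Of 13 adipocyte markers 0 passed 1 unit in CNT-1, with a range of -0.51 to 0.44. In CNT-2, where 10.1% of all genes were above and 6.56% below, 1 was above, Adipoq at 2.11, and 2 were below, Gpd1 at -2.41 and Retn at -1.20 (4 below with 75th percentile centring). Of 18 alveolar macrophage markers 2 were above in CNT-2, Cd14 at 3.37 ± 0.16 and Bhlhe41 at 2.31, and 4 were below, Fcgr1a at -2.56 ± 0.61, Mrc1 at -2.24 ± 0.13, Csf2rb at -1.51 and Csf1r at -1.25 ± 0.60 (SDs over 2 probes), with a control value of 0.52 for Csf1r. In CNT-1, where 1.16% of all genes were above and 2.15% below, 0 of the 18 were above and 1 was below, Car4 at -1.09. The control value of Car4, 1.01, lay far off 0. After quantile normalization 1 of the 18 was above in CNT-1, Bhlhe41 at 1.26, and 2 were below, Car4 at -2.06 and Csf1r at -1.10. Of 22 epithelial, endothelial, muscle and connective tissue markers 5 were above and 1 below in CNT-2, between -1.73 and 2.56. After quantile normalization 1 of the 22 was above. In CNT-1, 1 was above, Epcam at 1.61. The part of such marker changes in the results was not tested. Within the 1 cultured line used, a change in the mix of cell states and a change of RNA per cell cannot be told apart.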

How the data were processed

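Per the submitters' processing notes, Agilent Feature Extraction 10.7.3.1 was used on the 1-colour Cy3 arrays. The values deposited by the authors are centred per probe and were read as log2 from their signs and range, which natural logs would also allow. Their normalization, baseline, direction and log base are unstated in those sources, and higher values were read as more RNA. A column could be 1 array or an average, so it counted as 1 value, and the number of arrays limits the precision. The medians of the columns were 0.01 (control), -0.04 (CNT-1) and 0.06 (CNT-2).

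Probes were named from the platform annotation and updated through RefSeq (assembly GRCr8), 17424 of 20932 by accession. In Python 3.11.15 with pandas 2.3.3, columns were subtracted per probe and averaged per gene, and genes at least 1 unit apart were counted. The code was tested on simulated data, with planted shifts larger than the threshold and noise set by the spread between probes. Variation between arrays was not simulated, so that test does not bear on how reliable the 1-unit differences are. Background-like means a control value within 0.02 of the negative-control probe, which on centred values is no measure of signal. Members and lists were chosen with earlier results of these data known. Named genes were all members and, per list, up to 3 highest and 3 lowest past 1 unit in CNT-2 and any past 1 unit in CNT-1. Other listed genes, and the neighbours of Fabp4 and Fabp5, were added after that rule, some with their values known. Alternatives changed the scaling, probes, names, threshold, log base or the subtraction of the control.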

Additional observations from a re-analysis of the deposited data

How the results depend on the processing

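With 1 column per group no replicate could be left out. No level remained for a filter on dim probes, and leaving out background-like probes is not such a filter. No paired analysis was possible because each group has 1 column. The labels give all 3 columns the replicate number 4, and do not say whether it is an index or a count. The design text of the series gives n=4. It remained unclear whether a column is 1 array or an average. The counts of members past 1 unit against control were the same in all 4 other scalings. In CNT-2 a threshold of 0.5 units gave 3 above, and taking the RefSeq probe of Pdk4 alone, at -0.27, leaves Angptl4 as the one member below. In CNT-1 a threshold of 2 units gave 0 above and 1 below. The median of members in CNT-2 minus control moved from -0.10 to -0.42 with 75th percentile centring and to -0.33 with spike-in centring. In CNT-2 minus CNT-1 it moved from 0.14 to -0.18 and -0.13, 1 member was above under median, 75th percentile, spike-in and quantile scaling, and 2 were below with 75th percentile centring and 0 with quantile normalization. Reading the scale as natural log gave 2 below, a threshold of 0.5 gave 3 below, and a threshold of 2 gave 1 above and 0 below. Fabp5 reversed in that comparison, to -0.24, after quantile normalization. The causes were not tested.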
